A study of Mus musculus with 21 samples.

Results

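Gene expression in the liver 1 day after an antimiR against microRNA-122 was compared with that after saline. The comparison holds 6 of the 21 arrays in the series, 3 from treated and 3 from saline mice, which were picked by the day 3 group names in the sample titles and by no measured value. All animals were female NMRI mice, an outbred stock with no genetic change named. Treated animals received 25 mg/kg of SPC3372, the locked nucleic acid antimiR-122, at day 2, saline animals received the vehicle, and livers were taken at day 3. Treated replicates 1, 2 and 3 carry the mouse numbers 6, 7 and 8, and saline replicates 1, 2 and 3 the mouse numbers 1, 2 and 3. The controls received saline and no other oligonucleotide, so a response to loss of microRNA-122 and a response to an injected oligonucleotide cannot be told apart. Levels of the 3 treated and 3 saline mice of day 9, 7 days after the same dose, are used only to compare the 2 days. Their arrays, titled p0617 like the 6 compared, also enter the fit that estimates the spread behind each day 3 test. So do 6 arrays of day 23, whose titles carry another prefix, p0621.

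MicroRNA-122 is made mainly by hepatocytes, where it pairs through its seed with sites in messenger RNAs and lowers their level. An antimiR binds the mature microRNA, and the messenger RNAs it repressed then tend to rise. Type I interferon raises many of its genes through a short promoter element built on repeats of GAAA. Serum amyloid A proteins are made by hepatocytes in the acute phase, and Kupffer cells are the resident macrophages of the liver sinusoids.

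Letters found in the interferon element can be shown on the promoters of genes that rose in treated liver. The sequences below come from RefSeq, assembly GRCm38.p6, and run from 250 bases before the annotated start to the last base before it, 5′ to 3′ on the strand of the gene. Capitals mark each match to GAAANNGAA, searched on both strands, where N is any base and overlapping matches run together. Ifit1 is at chr19:34640639-34640888 on the plus strand, Ddx60 at chr8:61927837-61928086 on the plus strand and Ms4a6b at chr19:11518309-11518558 on the plus strand. Ifit1 is a classical interferon-induced gene, and Ddx60 and Ms4a6b were chosen from the largest increases outside the interferon response list because they hold a match. Of the 15 largest such increases 11 had a promoter entry, and 3 of these (27.3%) held a match, the third being Cxcl9.
Ifit1: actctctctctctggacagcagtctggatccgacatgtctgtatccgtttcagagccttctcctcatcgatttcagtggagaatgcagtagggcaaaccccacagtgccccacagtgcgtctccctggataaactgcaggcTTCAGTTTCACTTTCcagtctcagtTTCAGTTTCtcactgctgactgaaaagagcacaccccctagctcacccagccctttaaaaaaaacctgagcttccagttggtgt
Ddx60: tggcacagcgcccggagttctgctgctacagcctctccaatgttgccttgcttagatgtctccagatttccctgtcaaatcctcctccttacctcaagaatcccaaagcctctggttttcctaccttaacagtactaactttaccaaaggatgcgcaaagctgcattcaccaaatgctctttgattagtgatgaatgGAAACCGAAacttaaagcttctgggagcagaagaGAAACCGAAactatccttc
Ms4a6b: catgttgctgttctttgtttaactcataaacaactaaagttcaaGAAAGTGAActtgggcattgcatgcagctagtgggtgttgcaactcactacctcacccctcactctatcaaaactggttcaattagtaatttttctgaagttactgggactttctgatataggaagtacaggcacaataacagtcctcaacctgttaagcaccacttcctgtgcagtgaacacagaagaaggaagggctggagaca
Ifit1 holds 3 matches, Ddx60 2 and Ms4a6b 1. Of 27025 genes with a promoter entry, 8.18% held such a match in the same 250 bases. Of the 479 genes higher in treated liver 383 had an entry, and 57 of these (14.9%) held a match, against 21 of 281 (7.47%) among the 342 lower genes. In the interferon response list 12 of 26 called genes with an entry (46.2%) held a match, as did 3 of 8 members that were not called (37.5%), and outside that list 45 of 357 called higher genes (12.6%) did. A match is a description of the letters and no measurement of binding.

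The 6 arrays were alike in quality on most measures. Array medians of the log2 values of all 45101 probe sets lay between 4.77 and 4.82, and the correlation between arrays was 0.992 to 0.994 within treated, 0.993 to 0.994 within saline and 0.990 to 0.992 between the groups. For beta-actin the 3′ control probe set exceeded the 5′ one, as a log2 ratio, by 1.01, 1.05 and 1.01 in the treated mice against 0.81, 0.85 and 0.76 after saline, which do not overlap, while the same ratio for Gapdh overlapped. With the actin ratio as a covariate 98 genes passed in place of 821, all 821 kept their direction, and the standard error rose by a median factor of 1.48 while the change itself moved by a median factor of 0.974. In that fit the interferon response list had 17 called members, microRNA-122 targets from other studies 4, macrophage markers 2, lymphocyte markers 1 and chemokines 1. Antigen presentation, sensors, cell cycle, ribosome biogenesis, respiratory chain and endoplasmic reticulum lists had 0 by limma. The part of this ratio in the results was not tested beyond that fit. Precision is limited by the 3 arrays per group, and the labels do not say whether mice of a group were housed or dosed together.

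Of 18193 genes tested with limma, 821 passed an adjusted p of 0.05 (4.51%), 479 higher (2.63%) and 342 lower (1.88%) in treated liver. Counts of called members in the gene lists below are to be read beside these shares. At an unadjusted p under 0.05 the shares were 9.19% higher and 9.10% lower. The increases were larger than the decreases. Among called genes 80 rose and 8 fell at least 2-fold, 16 rose and 1 fell at least 4-fold, and 232 higher and 278 lower genes changed under 1.5-fold. The median change was 0.60 among called higher and -0.44 among called lower genes, against 0.01 over all genes (log2). The treated and saline mice did not overlap in 467 of the 479 and 340 of the 342. Over all genes tested, 11.1% lay wholly higher and 10.4% wholly lower in treated mice, so separation of 3 from 3 mice is common and is given below only as a description. Of other probe sets above the median level for the called higher genes, 284 of 322 had the same sign and 2 were called in the opposite direction. For the called lower genes 197 of 221 had the same sign and 0 were called in the opposite direction by limma. The count of 821 was 435 without treated replicate 1, 546 without saline replicate 1, 508 without saline replicate 2 and 253 in a fit on these 6 arrays alone. In fits without the p0621 arrays it was 684 on the 15 arrays titled p0617 and 636 on the 12 arrays of days 3 and 9.

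**Figure D1:**
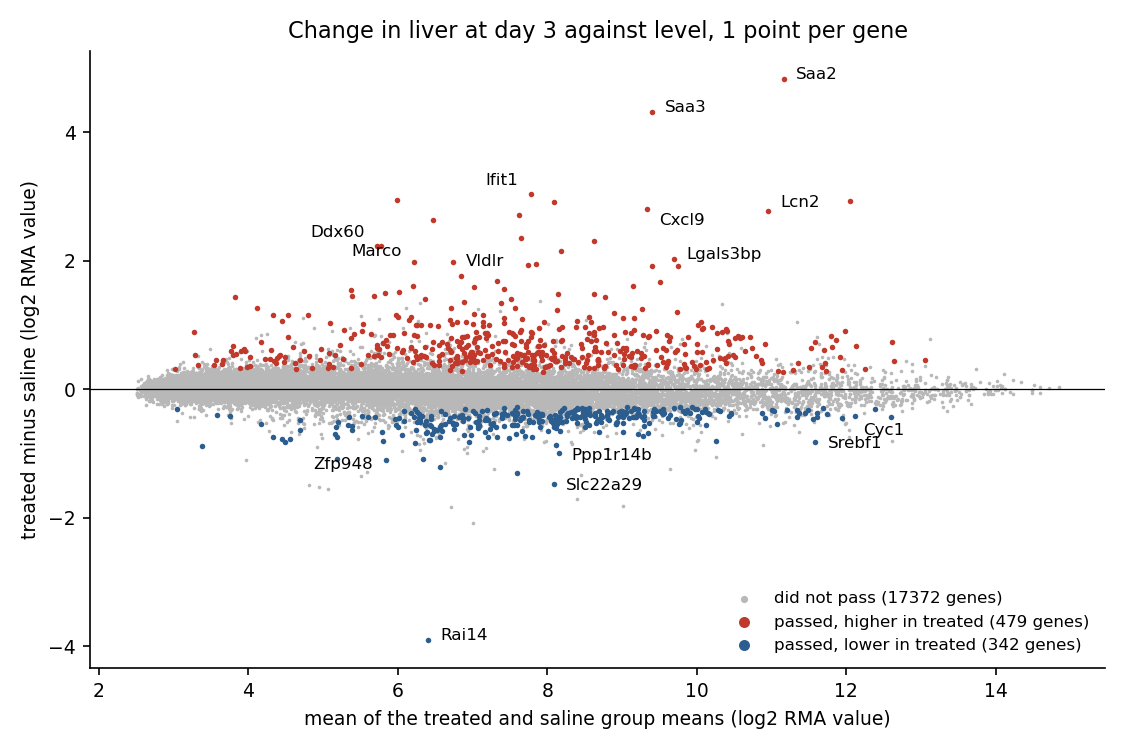
Treated minus saline log2 RMA value at day 3 (vertical axis) against the mean of the group means (horizontal axis, log2 RMA value), 1 point for each of 18193 genes, with called genes coloured by direction. The largest increases, up to 4.83 for Saa2, lie further from 0 than the decreases other than Rai14 at -3.90.

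Some known targets of microRNA-122 were raised 1 day after the dose. Of 27 targets taken from other studies 9 were called higher and 1 lower, with a median change of 0.295, and 4 were called higher with the actin covariate. Of 4 targets that the study measured 3 passed, and Cd320, a receptor for transcobalamin, stood at 7.39, 7.24 and 7.41 against 7.03, 7.04 and 6.85 and did not (log2 0.37, SE 0.10, adjusted p = 0.0503, limma). The aldolase Aldoa, a glycolytic enzyme, stood at 10.07, 10.04 and 10.05 in treated mice against 9.26, 9.17 and 9.26 after saline, and all 4 of its other probe sets also passed. Beside the long-known targets, Slc35a4, a nucleotide sugar transporter family member, stood at 7.05, 7.11 and 7.19 against 6.32, 6.15 and 6.5, a 1.73-fold rise (adjusted p = 0.000306, limma). These mice are separated for both genes with no overlap.
Ccng1, a cyclin that p53 induces, rose by 0.97 (SE 0.10) and Ndrg3, an N-myc downstream regulated family member, by 0.87 (SE 0.15). The rise of Ccng1 was 0.65 on a second probe set, and another differed by 0.31 without passing. Among the other called targets were Adam10, a membrane protease (log2 0.64, SE 0.09), Mapre1, a microtubule end-binding protein (log2 0.55, SE 0.09), and Iqgap1, a scaffold protein (log2 0.54, SE 0.12). Trib1, a pseudokinase on the same list, went the other way, at 6.24, 6.12 and 6.44 in treated mice against 6.94, 6.77 and 7.03 after saline (log2 -0.64, SE 0.11, adjusted p = 0.00322). The treated mice lay below all saline mice.

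The interferon response was the list with the most called genes. Of 48 measured members 37 were called higher and 0 lower, and the other 11 were also higher in value, from 0.21 to 1.25. The median change was 1.02, and treated replicates 1, 2 and 3 stood at 0.91, 1.28 and 0.84 above the mean saline level as medians over the list. In bulk tissue more cells of a type and more RNA per cell cannot be told apart. The list had 17 called members with the actin covariate and 31 without saline replicate 2.
By role, the Ifit proteins that bind foreign RNA were among the largest increases. Ifit1 stood at 8.77, 9.95 and 9.18 in treated and at 5.83, 5.88 and 7.06 in saline mice. Ifit2 rose by 2.63 and Ifit3 by 2.15 (log2). Saline replicate 3 was the highest control for Ifit1, and the groups still did not overlap.
The transcription factors of the pathway also rose. Irf7, which amplifies interferon production, stood at 8.72, 9.46 and 8.72 against 6.10, 6.0 and 6.69. Irf9 rose by 0.88 and Stat2 by 0.55 (log2, SE 0.13 and 0.15). The synthetases that activate RNase L changed to unlike degrees, with Oasl2, a synthetase-like family member, higher by 2.94, Oas1a by 1.95, Oas2 by 0.49 and Oas3 by 0.49 (log2).
The membrane proteins Ifitm3 and Bst2, which hinder virus entry and release, rose by 0.73 and 0.96. The guanylate binding and immunity-related GTPases, which also respond to interferon gamma, included Gbp6 (log2 2.31), Gbp3 (1.75), Irgm2 (1.18) and Iigp1 (0.50). Lgals3bp, a secreted galectin-3 ligand, had the lowest p of the list, with 10.70, 10.88 and 10.54 in treated mice against 8.68, 8.5 and 8.84 after saline (4.09-fold, adjusted p = 1.46e-08).
Genes with interferon-derived names were also among the largest increases outside the list. Ifi27 stood at 10.12, 10.43 and 10.45 against 8.44, 8.60 and 8.97, and Ifi202b at 8.23, 8.44 and 7.86 against 6.15, 6.36 and 6.96, with no overlap. The increases were 3.18-fold and 3.21-fold.

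Genes next to interferon signalling changed in part. Of 12 measured genes of ubiquitin and ISG15 conjugation 5 rose, with a median change of 0.338. Usp18, the protease that removes ISG15, stood at 8.47, 9.26 and 8.77 against 6.30, 6.15 and 6.99 (5.12-fold, adjusted p = 9.90e-05). The ligases Herc6 and Rnf213 rose by 1.34 and 1.10 and Uba7, the activating enzyme of ISG15, by 0.59. The count of 5 was 3 without treated replicate 2 or saline replicate 1, where the adjusted p of Uba7 was 0.0557 and 0.051. A second Uba7 probe set at a like level rose by 0.98 (SE 0.17), and a dimmer one differed by 0.14 (SE 0.10) without passing.
Of 24 nucleic acid sensors and Toll-like receptors, 3 were called higher and 1 lower, with a median of 0.144. The receptors Tlr1, Tlr7 and Tlr3 rose by 0.65, 0.61 and 0.64, and Tlr3 lost its call without saline replicate 1 (adjusted p = 0.0509). Tlr1 and Tlr7 were dim, with means of 4.53 and 4.27 against a median of 4.79 over the probe sets. Dimmer probe sets of Tlr7 differed by 0.13 and 0.10 and of Tlr3 by 0.15, and none passed. Tlr9, which senses DNA with unmethylated CpG, differed by 0.09 (log2, SE 0.10) and did not pass. Mavs, the mitochondrial adaptor of RNA sensors, was lower at 9.79, 9.92 and 9.81 against 10.42, 10.47 and 10.31, with no overlap. Its call ended without treated replicate 1 or 3 or saline replicate 1 or 2 (adjusted p 0.0578 to 0.0962).
In antigen presentation 5 of 20 genes rose. They were Tapbp (log2 0.70), which loads peptides on class I molecules, Ctss (0.95), a protease of the endosome, Psme1 (0.41), Tap1 (0.53) and Psmb8 (0.62). The class II genes H2-Aa, H2-Ab1 and H2-Eb1 differed by 0.31, 0.03 and -0.09 and did not pass. Without treated replicate 2 the count was 3, and it was 2 with treated replicate 1 or saline replicate 1 or 2 left out. The count was 1 on the 6 arrays alone and 0 with the actin covariate. In the fits without 1 of those 4 arrays Tap1 lost its call (adjusted p 0.0813 to 0.115), and Psme1 in all but that without treated replicate 2 (0.0548 to 0.0766).

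Of 22 measured chemokines 4 were called higher and 0 lower, against 2.63% and 1.88% of all genes. In value 17 were higher, and the median change was 0.136. At an unadjusted p under 0.05, 7 were higher and 1 lower. Cxcl9, which draws T cells and natural killer cells through Cxcr3, stood at 12.27, 9.02 and 10.94 in treated and at 7.47, 7.83 and 8.5 in saline mice (7.01-fold, log2 2.81, SE 0.54, adjusted p = 0.00522). The treated mice spread over more than 3 log2 units and lay above all saline mice. A dimmer Cxcl9 probe set differed by 0.31 (SE 0.18) without passing. The Cxcl9 promoter, at chr5:92328080-92328329 on the minus strand, holds 1 match to GAAANNGAA, in capitals as above. Of all genes with a promoter entry 8.18% held such a match, and whether this one acts as an interferon element was not tested.
Cxcl9: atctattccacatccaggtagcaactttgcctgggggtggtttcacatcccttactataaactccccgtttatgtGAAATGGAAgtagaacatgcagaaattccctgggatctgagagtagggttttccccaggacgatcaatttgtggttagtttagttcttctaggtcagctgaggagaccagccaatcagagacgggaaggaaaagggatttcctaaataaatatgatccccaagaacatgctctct
Ccl5, a chemokine that draws T cells, stood at 6.84, 6.30 and 7.16 against 5.24, 5.32 and 5.20, with no overlap (2.86-fold, adjusted p = 0.00013). Ccl6 rose by 0.74. Ccl24 was called at 0.66, but treated replicate 1 at 7.16 lay below saline replicate 3 at 7.23, and its call ended on leaving out any array other than saline replicate 3 (adjusted p 0.0522 to 0.183). The neutrophil attractants Cxcl1 and Cxcl2 differed by -0.55 and 0.09 and the monocyte attractant Ccl2 by 0.11, and none passed.

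Acute phase genes split into a few very large increases and a majority within the spread of the mice. Saa2 stood at 13.57, 13.51 and 13.65 in treated and at 8.15, 8.40 and 9.68 in saline mice, and Saa1 and Saa3 also rose. Saa4, the constitutive member of the family, differed by -0.05 (SE 0.11, adjusted p = 0.855). Apart from that family, 2 of 22 acute phase genes were called higher and the median change was 0.073.
Lcn2, a lipocalin that withholds siderophore iron, stood at 12.65, 11.99 and 12.38 against 9.80, 9.19 and 9.70 (6.84-fold, SE 0.48 on the log2 scale, adjusted p = 0.00249). Orm2, an orosomucoid, stood at 10.90, 10.72 and 10.50 against 8.33, 8.49 and 9.57 (3.76-fold, adjusted p = 0.00216). Both separated the groups, and saline replicate 3 was the highest control for Orm2, Saa1 and Saa2.
Orm1 differed by 0.15, the pentraxin genes Crp and Apcs by 0.04 and 0.03, haptoglobin Hp by 0.24 and hepcidin Hamp by -0.12, and none passed. The cytokine genes Il6, Il1b and Tnf differed by -0.02, 0.07 and 0.26 and did not pass. Among 28 cytokine signalling genes 1 rose, against 2.63% of all genes. It was Il18bp, which neutralises interleukin 18 (8.20, 8.46 and 7.98 against 6.85, 7.07 and 7.43, adjusted p = 0.000475). Socs3, a feedback inhibitor of interleukin 6 signalling, differed by -0.40 with saline replicate 3 highest at 8.57.
Of 23 complement genes C1qc, a chain of C1q, and Cfp, properdin, rose by 0.95 and 0.97, while the list median was 0.058. A dimmer Cfp probe set differed by -0.16 (SE 0.12) without passing, and the call of Cfp ended with the mean of the probe sets. Among 21 coagulation genes and 7 plasma proteins that usually fall in the acute phase 0 passed by limma, with 2 and 1 at an unadjusted p under 0.05.

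**Figure D2:**
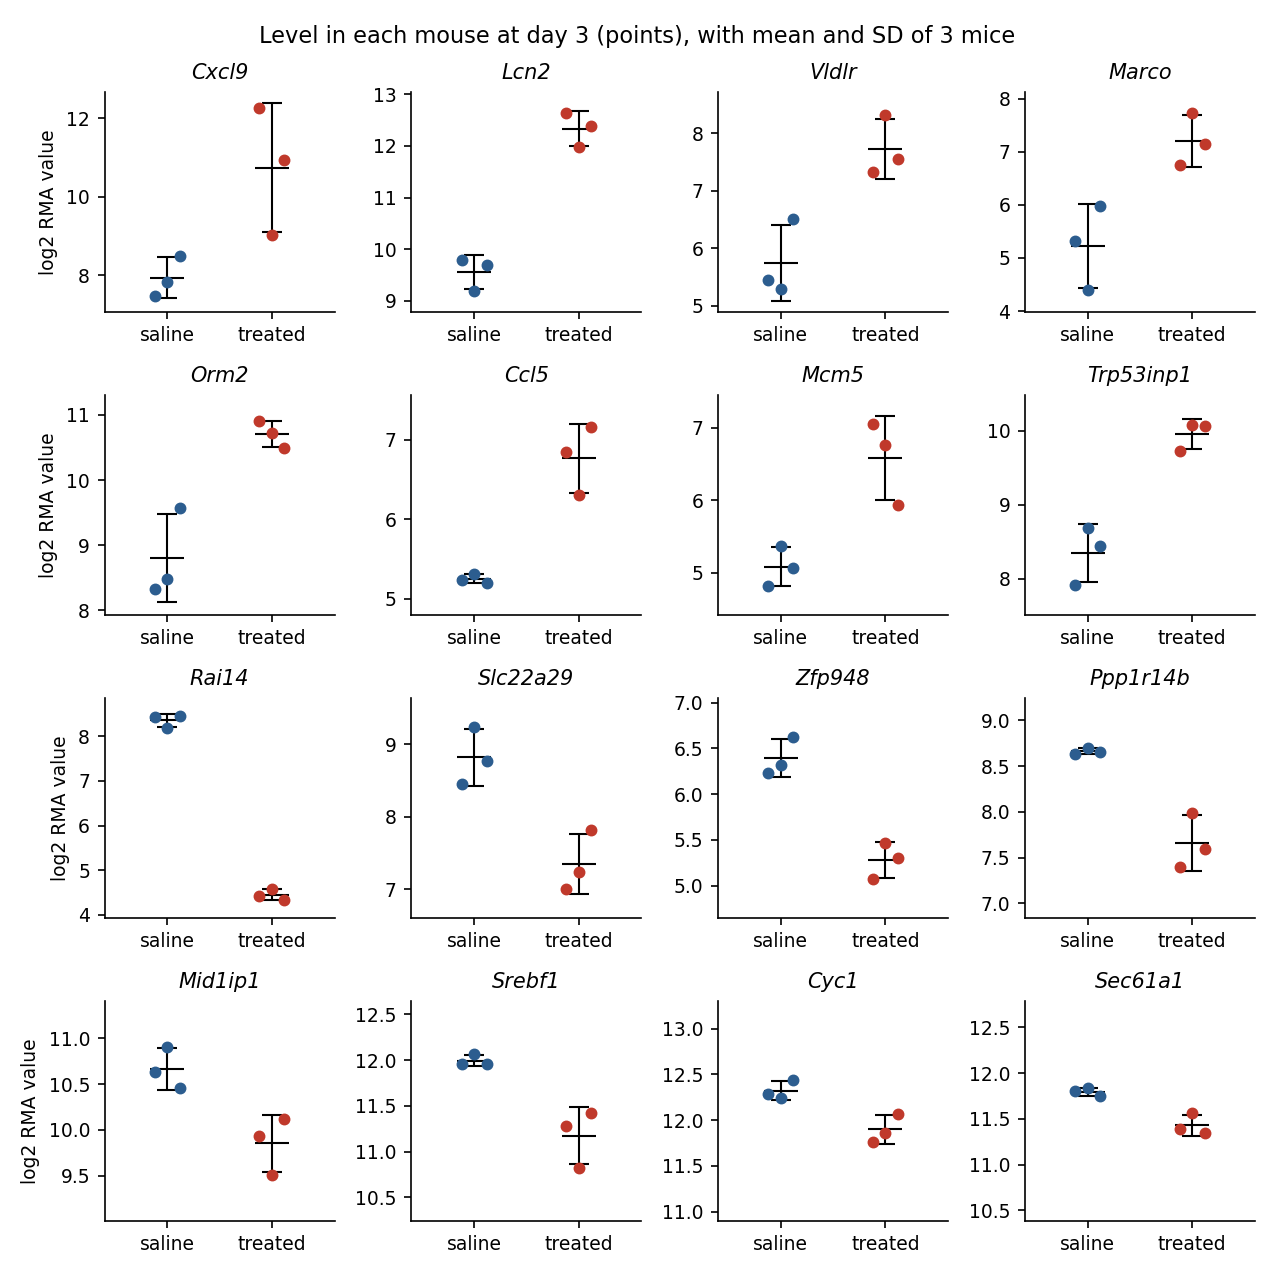
Log2 RMA value in each saline and treated mouse at day 3 (points) for 16 genes outside the interferon and serum amyloid lists, with the mean and SD of 3 mice (bars); vertical axes differ between panels. The top 8 genes are higher in every treated mouse than in any saline mouse and the lower 8 are lower.

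Macrophage markers were higher, with 1 control close to the treated mice. Of 22 Kupffer cell and macrophage markers 12 were called higher and 21 were higher in value, with a median of 0.671. Marco, a scavenger receptor, stood at 6.75, 7.72 and 7.15 against 5.31, 4.39 and 5.98 (3.95-fold, adjusted p = 0.00306). Clec4f, a lectin found on Kupffer cells, stood at 10.39, 10.97 and 10.38 against 9.53, 9.09 and 10.002 (2.06-fold, adjusted p = 0.00265). The mice did not overlap for these genes.
As medians over the list, treated mice stood at 0.64, 0.98 and 0.50 and saline mice at -0.11, -0.35 and 0.47 from the mean saline level, so saline replicate 3 came close to treated replicate 3. The count of 12 was 6 without treated replicate 2, 7 without saline replicate 1, 5 without saline replicate 2 and 2 in a fit on the 6 arrays alone. Csf1r, the receptor for the macrophage growth factor, and Cd163, a haemoglobin scavenger receptor, differed by 0.30 and 0.11 without passing, and Timd4 by 0.60 (adjusted p = 0.0699).
Genes of cytotoxic lymphocytes rose from low levels. Of 18 lymphocyte and natural killer cell markers 6 were called higher (Ccl5, Gzma, Gzmb, Klrk1, Klrd1 and Ncr1) with a median of 0.252. Gzma, a granzyme, stood at 6.83, 7.76 and 6.61 against 6.01, 5.39 and 5.59 (2.65-fold, adjusted p = 0.00252). Klrk1 and Ncr1, activating receptors of natural killer cells, rose by 1.03 and 0.42. The T cell receptor gene Cd3e differed by 0.23 and the B cell gene Ms4a1 by -0.15, and neither passed. The count of 6 was 3 without treated replicate 1 or 2 or saline replicate 1 and 2 without saline replicate 2. Gzmb lost its call without treated or saline replicate 2 (adjusted p = 0.0582 and 0.0666), and Klrk1 on leaving out any array other than treated replicate 3 (0.0506 to 0.133).
Of 16 monocyte and neutrophil markers Plac8 and Itgb2, the shared chain of the beta-2 integrins, rose by 1.48 and 1.05, while Ccr2 and S100a8 differed by 0.08 and 0.34 without passing. All 16 were higher in value, with a median of 0.149, and 6 lay above the median level of all probe sets. Ms4a6b and Ms4a6d, 4-span membrane proteins of immune cells, were among the largest increases outside the lists. Ms4a6b stood at 6.70, 7.15 and 6.80 against 4.71, 4.12 and 5.14 (4.67-fold, adjusted p = 5.03e-05), with no overlap, and Ms4a6d rose 3.04-fold.
Markers of other liver cell types had few called members. The dendritic cell list had 1 called member of 11, Bst2, which is also an interferon response gene. All 11 were higher in value, with a median of 0.174. The sinusoidal endothelial list had 1 of 19, Clec4g (log2 0.60), with 5 higher and 0 lower at an unadjusted p under 0.05 and 3 called without treated replicate 3. The bile duct list had 1 of 8, Epcam (log2 0.32), whose call ended on leaving out any array other than saline replicate 1 (adjusted p 0.0661 to 0.123). Of 19 stellate cell genes 0 passed by limma, with 1 higher and 2 lower at an unadjusted p under 0.05. Hepatocyte markers had a median of 0.031, with albumin Alb at 14.86, 14.86 and 14.84 against 14.82, 14.83 and 14.82. The highest value on the 6 arrays was 14.96, and whether so bright a probe set could show a rise was not tested. Pck1 was the called member of the 11 hepatocyte markers.

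**Figure D3:**
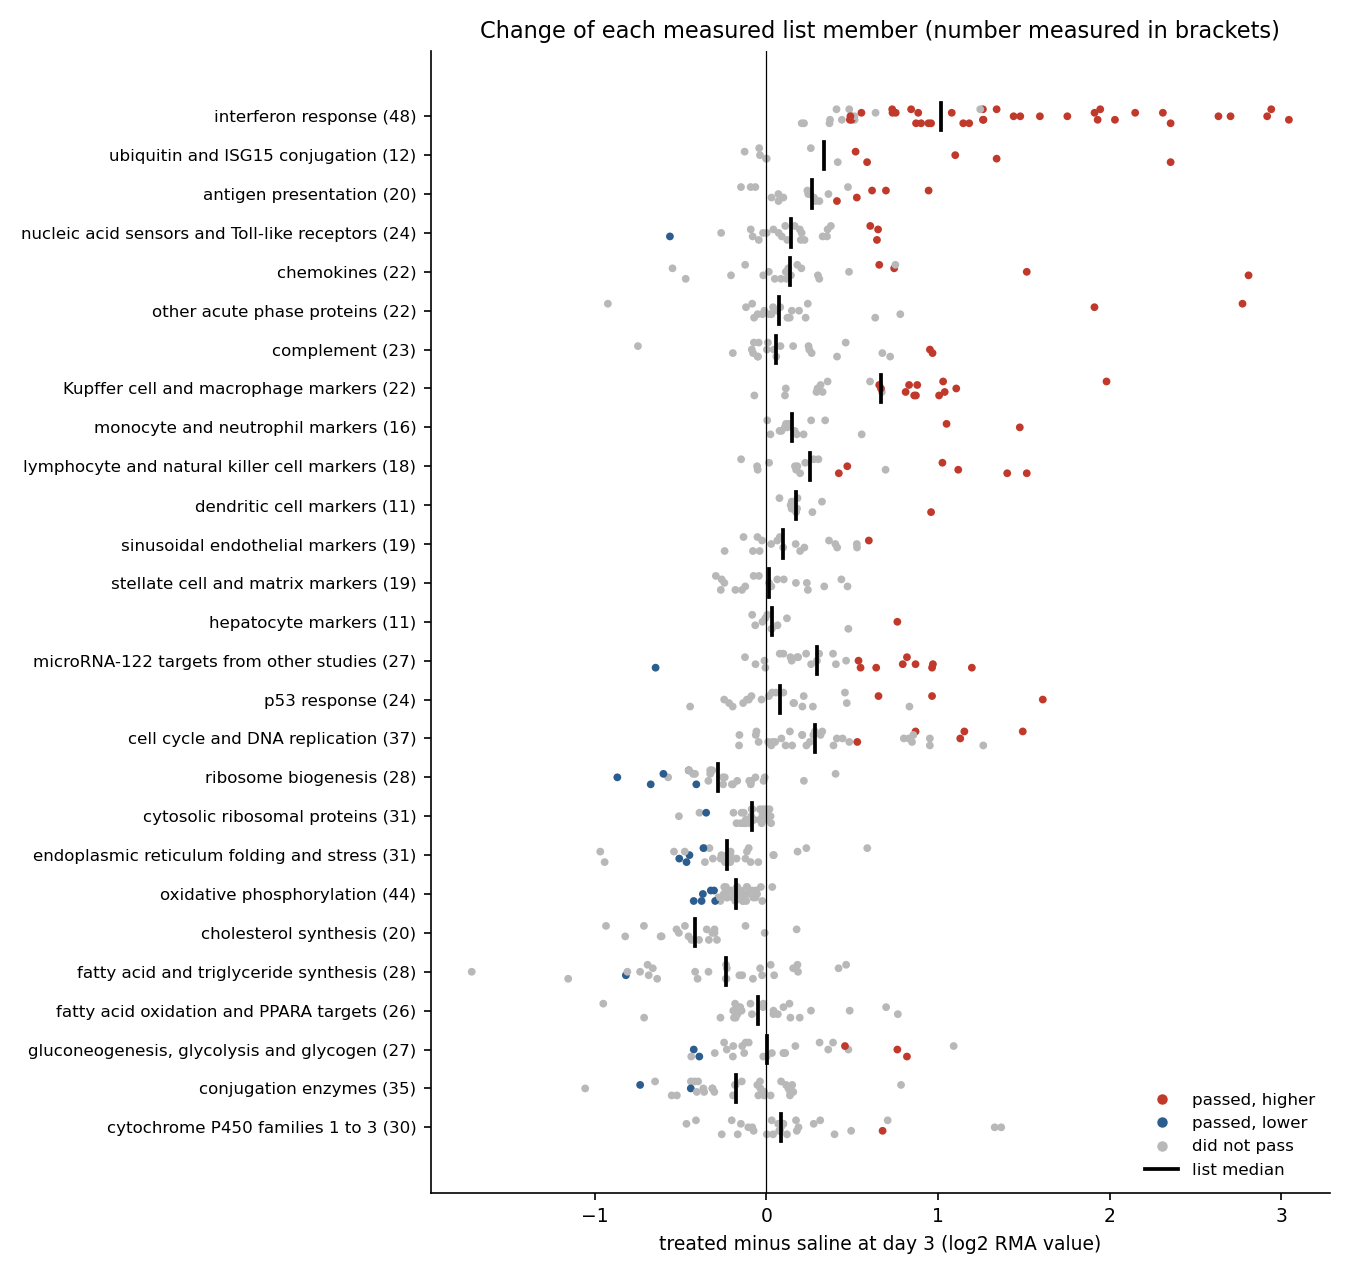
Treated minus saline log2 RMA value at day 3 (horizontal axis) of each measured member of 27 gene lists (rows, number measured in brackets), with called members in colour and the list median as a bar. Interferon response and macrophage lists lie to the right, with medians of 1.02 and 0.671, and ribosome biogenesis, endoplasmic reticulum, oxidative phosphorylation and cholesterol synthesis to the left.

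Cell cycle genes were higher in treated liver, mostly from low levels. Of 37 measured 5 were called higher and 0 lower, 18 were higher at an unadjusted p under 0.05, and the median change was 0.283. Mcm5, a subunit of the replicative helicase, stood at 7.05, 6.75 and 5.93 against 4.82, 5.37 and 5.06 (2.82-fold, adjusted p = 0.00604). Cdk1, the kinase that drives mitosis, stood at 7.11, 7.02 and 6.09 against 5.56, 5.67 and 5.59 (2.19-fold, adjusted p = 0.00432). Treated replicate 3 was the lowest treated mouse for both genes and stayed above all saline mice.
Cdt1 and Cdc6, which load the helicase, rose by 0.87 and 0.53 and Top2a, topoisomerase II, by 1.15. The Top2a probe set was dim, with a mean of 4.43 over the 18 arrays. Another Top2a probe set at a like level differed by 0.04 (SE 0.12) and a dimmer one by -0.04, and neither passed. Dimmer probe sets of Cdt1 differed by 0.31 and -0.19 and of Mcm5 by 0.60 and 0.09, and none passed. Pclaf, a clamp-associated replication factor outside the list, stood at 6.78, 6.38 and 5.29 against 4.09, 4.66 and 5.06. Dimmer Pclaf probe sets differed by -0.06 and 0.03, and neither passed. The calls of Top2a and Pclaf ended without treated replicate 1 or 2 and that of Pclaf also without saline replicate 1 (adjusted p 0.0581 to 0.0937), and 0 cell cycle calls were left with the actin covariate. Leaving out treated replicate 3 gave a list count of 12, and leaving out treated replicate 2 gave 3. The letters TTTCCCGC or TTTGGCGC, which E2F factors of the cell cycle are known to bind, were searched on both strands of the same promoter window. They were found in 1.51% of all genes, in 5 of 29 cell cycle genes with an entry (17.2%) and in Mcm5 and Cdc6 among the 5 called. Over all called genes with an entry, 10 of 383 higher (2.61%) and 9 of 281 lower genes (3.2%) held them. The Mcm5 promoter at chr8:75109259-75109508 on the plus strand is shown with the match in capitals.
Mcm5: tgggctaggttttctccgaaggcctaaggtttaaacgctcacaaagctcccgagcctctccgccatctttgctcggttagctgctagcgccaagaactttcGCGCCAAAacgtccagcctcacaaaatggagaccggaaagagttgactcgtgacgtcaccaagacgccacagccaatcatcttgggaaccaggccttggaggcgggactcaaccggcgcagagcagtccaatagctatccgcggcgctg
In the p53 response 3 of 24 genes rose, and 1 of these, Ccng1, is also a target of microRNA-122. Trp53inp1, which p53 induces under stress, stood at 9.72, 10.09 and 10.06 against 7.92, 8.69 and 8.44 (3.05-fold, adjusted p = 0.000682), with no overlap. Rrm2b, a ribonucleotide reductase subunit, rose by 0.65. The list median was 0.078.

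Rai14, which codes for an ankyrin-repeat protein that binds actin, fell most. It stood at 4.43, 4.59 and 4.34 in treated and at 8.43, 8.18 and 8.46 in saline mice (14.96-fold lower, log2 -3.90, SE 0.16, adjusted p = 3.31e-10). The treated values lie under 4.79, the median over the probe sets, and RMA shrinks differences at such dim levels. The probe sets of the gene disagreed in size. Another fell by 1.65 (SE 0.16), while a brighter one than that differed by -0.60 (SE 0.32) and a dim one by -0.21, and neither passed. With the mean of its probe sets Rai14 changed by -1.59.
The other large decreases were between 1.75-fold and 2.77-fold. Slc22a29, an organic anion transporter family member, stood at 7.0, 7.24 and 7.81 against 8.45, 9.24 and 8.77. Ppp1r14b, an inhibitor of protein phosphatase 1, stood at 7.39, 7.99 and 7.59 against 8.63, 8.70 and 8.66. Neither gene overlapped between the groups.
Klhl28, a kelch family protein, fell by 1.08 on its brightest probe set, while another probe set at a like level differed by -0.11 (SE 0.13). Nlrp12, an inhibitory inflammasome family member, fell 2.46-fold, but its call ended without treated replicate 1 or 3 or saline replicate 1 or 3 (adjusted p 0.069 to 0.163). Ccl25, a chemokine of gut and thymus, fell by 0.81, and Polr3g, a subunit of RNA polymerase III, by 0.85. The call of Polr3g ended without treated replicate 1 or 2 or saline replicate 1 or 2 (adjusted p 0.0756 to 0.159).
D130043K22Rik (2.31-fold lower), Tex12, a meiotic chromosome protein (1.78-fold), and Arfgap3, which acts in Golgi traffic (1.77-fold), complete the largest decreases together with zinc finger and lipid genes described next. The call of Arfgap3 ended on leaving out any array other than treated replicate 2 (adjusted p 0.099 to 0.16).

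Of 7 neighbouring zinc finger genes 4 were called lower, against 5 of 329 other genes with Zfp names and 1.88% of all genes. In RefSeq, Zfp677, Zfp54, Zfp51, Zfp53, Zfp52, Zfp948 and Zfp983 lie on chromosome 17 with no other protein-coding gene between them. This run was picked after its values were seen, so its count is a description. Zfp948 stood at 5.07, 5.47 and 5.30 in treated mice against 6.23, 6.32 and 6.63 after saline (log2 -1.11, SE 0.15, adjusted p = 0.000444), and Zfp51 at 4.54, 5.01 and 4.40 against 5.51, 6.07 and 5.62 (log2 -1.09). Neither pair of groups overlapped.
Zfp54 fell by 0.78 and Zfp983 by 0.72. Zfp53 differed by -0.51 (adjusted p = 0.116), and Zfp677 and Zfp52 by 0.04 and 0.06. Zfp677, Zfp52 and the called Zfp54 were all dim, with means of 4.17, 3.45 and 4.39 over the 18 arrays. The treated mean of Zfp51, 4.65, also lay under 4.79, the median over the probe sets. A dimmer second probe set of Zfp948 differed by -0.21 (SE 0.16) without passing. Neighbouring zinc finger genes are alike in sequence, and binding of RNA from a neighbour to their probe sets was not tested.

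Genes for making ribosomes were lower. Of 28 ribosome biogenesis genes 5 were called lower and 0 higher, 15 had an unadjusted p under 0.05 and a lower value, and the median was -0.283. Rrs1, an assembly factor of the large subunit, stood at 7.81, 7.92 and 7.31 against 8.54, 8.45 and 8.66 (1.82-fold lower, adjusted p = 0.00689), and its second probe set fell by 0.89. Polr1e, a subunit of RNA polymerase I, fell by 0.60, Rrp12 by 0.67, Mybbp1a by 0.41 and Nip7 by 0.45. Rrs1 did not overlap between the groups.
The count of 5 was 1 without treated replicate 1 or 3 or saline replicate 3, 2 without saline replicate 1 or 2 and 0 with the actin covariate. Rrs1 kept its call in each of these 5 fits that left out an array, while Polr1e, Rrp12 and Mybbp1a each lost theirs in 4 or 5 (adjusted p 0.0529 to 0.138). The cytosolic ribosomal protein genes themselves had a median of -0.081, with Rpl37 called lower of 31 (log2 -0.35). The call of Rpl37 ended on leaving out any array other than treated replicate 2 (adjusted p 0.066 to 0.144).

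Respiratory chain genes shared a small decrease. Of 44 measured 43 were lower in value, 24 of them had an unadjusted p under 0.05 and 6 passed, with a median change of -0.177. Cyc1, cytochrome c1 of complex III, stood at 11.76, 11.86 and 12.07 against 12.29, 12.24 and 12.44 (1.34-fold lower, adjusted p = 0.00946). Ndufv1 and Ndufb9, subunits of complex I, fell by 0.32 and 0.30, and Sdhc of complex II by 0.37. As list medians the treated mice stood at -0.19, -0.26 and -0.10 and the saline mice at -0.03, 0.04 and 0.01, with no overlap.
The count of 6 was 0 without treated replicate 1, 2 without treated replicate 2 or saline replicate 2 or 3, 0 with the actin covariate and 0 in a fit on the 6 arrays alone. Without treated replicate 1 the adjusted p was 0.0632 for Cyc1, 0.0869 for Ndufv1 and 0.0614 for Sdhc.

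Genes of protein folding in the endoplasmic reticulum were lower, least so in treated replicate 2. Of 31 measured 4 were called lower and 0 higher, 13 had an unadjusted p under 0.05 and a lower value, and the median was -0.228. Sec61a1, the channel of the translocon, stood at 11.39, 11.56 and 11.34 against 11.81, 11.83 and 11.75 (1.29-fold lower, adjusted p = 0.00997). The disulfide isomerases Pdia6 and Pdia3 fell by 0.45 and 0.46, and Atf6, a stress-sensing transcription factor, by 0.51, although 2 dimmer Atf6 probe sets differed by 0.07 and -0.04. Over the list the treated mice stood at -0.31, -0.04 and -0.40.
The count of 4 was 0 without treated replicate 1, where Sec61a1 had an adjusted p of 0.0521 and Pdia6 of 0.0739. It was 2 without saline replicate 1, 1 without saline replicate 2 and 7 without treated replicate 2. Hspa5, the main chaperone of this compartment, and Ddit3, a stress-induced factor, differed by -0.27 and -0.22 without passing.

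Lipid synthesis genes differed among the treated mice. In cholesterol synthesis 0 of 20 genes passed by limma and 3 were lower at an unadjusted p under 0.05, with a median of -0.413. Treated replicates 1 and 2 stood at -0.78 and -0.53 and replicate 3 at 0.06. In fatty acid and triglyceride synthesis the treated mice stood at -0.32, -0.66 and 0.20 and the saline mice at -0.12, 0.23 and -0.09, so the groups overlapped.
Srebf1, the transcription factor of fatty acid synthesis, was the called gene of 28, at 11.28, 10.82 and 11.42 against 11.95, 12.07 and 11.96 (1.76-fold lower, adjusted p = 0.00395). Mid1ip1, which activates acetyl-CoA carboxylase, stood at 9.94, 9.51 and 10.12 against 10.63, 10.90 and 10.45 (log2 -0.81, SE 0.17). Both genes were lower in all 3 treated mice than in any saline mouse. The list count of 1 was 5 without treated replicate 3 and 2 without saline replicate 3. The call of Mid1ip1 ended without treated replicate 2 (adjusted p = 0.0533) or saline replicate 2 (0.0596).
Vldlr, the receptor for very low density lipoprotein, rose to 7.32, 8.32 and 7.56 from 5.44, 5.29 and 6.5 (3.97-fold, SE 0.50 on the log2 scale, adjusted p = 0.0308), and a second probe set rose by 2.04. Dimmer Vldlr probe sets differed by 0.99, 1.68, 0.72 and 0.43, and none of these passed. The call of Vldlr ended on leaving out any array other than saline replicate 3 (adjusted p 0.0505 to 0.123). It also ended with the mean of the probe sets. Vldlr was the called member of 20 lipoprotein genes, whose median was -0.01. Among 26 fatty acid oxidation genes 0 passed by limma, with 3 higher and 2 lower at an unadjusted p under 0.05.

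**Figure D4:**
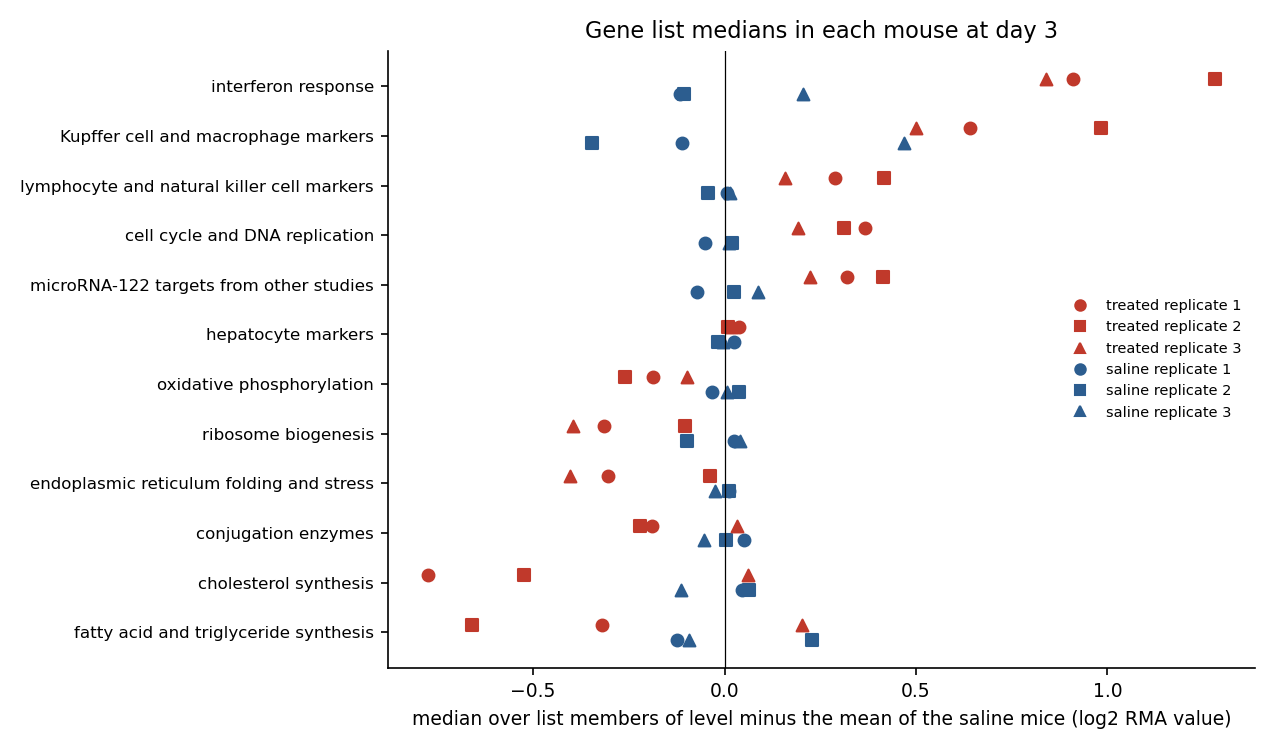
Median over the members of 12 gene lists of the level minus the mean of the saline mice (horizontal axis, log2 RMA value), 1 mark per mouse. Treated replicate 3 lies at 0.06 for cholesterol synthesis beside -0.78 and -0.53 for the other treated mice, and saline replicate 3 at 0.47 for macrophage markers beside -0.11 and -0.35.

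Hepatocyte metabolism otherwise changed in scattered genes. In glucose metabolism 3 of 27 genes rose and 2 fell, with a median of 0.002. Pck1, the first committed enzyme of gluconeogenesis, stood at 12.15, 12.51 and 12.06 against 11.51, 11.46 and 11.46 (1.70-fold, adjusted p = 0.00408), with no overlap. Dimmer Pck1 probe sets differed by 0.80 (SE 0.24) and -0.47 (SE 0.19), and neither passed. The call of Pck1 ended with the mean of the probe sets. Gys2, liver glycogen synthase, fell by 0.42 and Pfkl, liver phosphofructokinase, by 0.39. The call of Gys2 ended without treated replicate 1 or 2 or saline replicate 1 or 2 (adjusted p 0.108 to 0.167), and the count of 2 lower genes was 0 without treated replicate 2 or saline replicate 1 or 2.
Cyp7a1, the rate-limiting enzyme of bile acid synthesis, stood at 11.51, 10.59 and 10.49 against 10.19, 9.62 and 9.96 (1.92-fold, adjusted p = 0.0435), and Hsd3b7 of the same pathway rose by 0.44. Cyp7a1 lost its call without treated replicate 1 or any saline replicate (adjusted p 0.0526 to 0.214), and Hsd3b7 without treated replicate 2 or saline replicate 1 or 2 (0.0603 to 0.0659). The other 13 genes of bile acid synthesis did not pass, and the list median was -0.143. At an unadjusted p under 0.05 4 of the 15 were higher and 4 lower. The largest difference was that of Cyp39a1, an oxysterol hydroxylase, at -1.24 (SE 0.47, adjusted p = 0.161), and Cyp7b1, of the alternative pathway, differed by -0.67.
Of 30 drug-metabolising cytochrome P450 genes 1 was called higher, against 2.63% of all genes. It was Cyp1a2 (12.60, 12.34 and 12.45 against 11.81, 11.68 and 11.86, 1.599-fold), while Cyp3a11 and Cyp2e1 differed by 0.0033 and 0.12. Of 35 conjugation enzymes Ugt3a1 and Ugt2b1 fell by 0.73 and 0.44, 11 had an unadjusted p under 0.05 and a lower value, and the median was -0.179. Cyp1a2 lost its call without treated replicate 1 or saline replicate 2 (adjusted p = 0.0659 and 0.0554), and Ugt2b1 on leaving out any array other than saline replicate 3 (0.0522 to 0.122). The count of 2 conjugation enzymes was 6 without treated replicate 3.
Of 22 sterol, bile acid and drug transporters Abcg2, an efflux pump, and Slc47a1, a cation exporter, fell by 0.44 and 0.33. Each of these calls ended without at least 4 of the 6 arrays in turn (adjusted p 0.0733 to 0.142). For Abcg2 treated replicate 3 at 9.19 overlapped saline replicate 1 at 9.16.

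In iron handling, Hjv, the hemojuvelin co-receptor that drives hepcidin, stood at 10.33, 10.11 and 10.54 against 9.06, 9.35 and 8.98, and Ireb2, an iron-responsive RNA-binding protein, rose by 0.38. Ireb2 lost its call without treated replicate 2 or 3 or saline replicate 1 or 3 (adjusted p 0.0561 to 0.0984). The other 20 genes did not pass. Bckdk, the kinase that shuts off branched-chain ketoacid breakdown, stood at 7.64, 7.67 and 7.85 against 6.5, 6.61 and 6.58 and was the called gene of 29 in urea cycle and amino acid breakdown. For comparison, 2.63% of all genes were called higher.
In microRNA processing and silencing Tut7, an RNA uridylyltransferase, rose by 0.43 and Adar, an RNA editing enzyme that interferon induces, by 0.51, of 28 measured. The clock list had 1 called member of 22, against 2.63% of all genes called higher. This was Nr1d2 (log2 0.90), for which treated replicate 1 at 7.56 overlapped saline replicate 2 at 7.76. Adar lost its call without any treated replicate or without saline replicate 1 (adjusted p 0.0744 to 0.178), and Nr1d2 without treated replicate 2 or 3 or saline replicate 1 or 3 (0.106 to 0.177). A second Adar probe set at a like level rose by 0.76 (SE 0.12), and a dimmer one differed by 0.35 (SE 0.18) without passing.
In 7 further lists 0 genes passed by limma. At an unadjusted p under 0.05, higher and lower genes numbered 3 and 2 of 26 in the NRF2 list and 0 and 0 of 6 blood cell genes. They numbered 4 and 3 of 26 growth hormone genes, 0 and 3 of 20 heat shock genes, 3 and 3 of 20 hepatocyte transcription factors and 2 and 1 of 26 proteasome subunits. Fatty acid oxidation, above, is the seventh.

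The effect at day 3 was compared with that at day 9. The labels use the mouse numbers 1, 2 and 3 for saline on both days and the number 8 for a treated mouse on each day. They do not say how these numbers relate, and the samples were counted as separate mice. By limma 26 of 18193 genes differed between the days (0.143%), 17 more positive and 9 more negative at day 3. At day 9 511 genes passed, 348 higher and 163 lower.
Orm2 differed by 1.91 at day 3 and by -1.01 (SE 0.32, adjusted p = 0.109) at day 9, and the change between the days was 2.92 (SE 0.46, adjusted p = 0.0178). Irf7 stood at 2.70 and 0.87, Oasl2 at 2.94 and 1.30, Phf11d at 1.55 and 0.34, and Lgals3bp at 2.03 and 1.203. Rai14 stood at -3.90 and -1.42. In each of these the day 3 effect was the larger in size.
Rbfox2, a splicing regulator, differed by -0.72 at day 3 and rose by 1.65 at day 9, and Nufip2 by -0.41 and 0.90. Neither day 3 difference passed. At day 3 another Nufip2 probe set at a like level differed by 0.004 (SE 0.13) and a dimmer one by -0.07. Dim Rbfox2 probe sets differed by -0.11, -0.14 and -0.03 at day 3, and none of these passed. Trib1 fell by 0.64 at day 3 and differed by 0.32 at day 9. Abcg5, a sterol exporter, was at -0.34 and 0.65. The targets Aldoa, Bckdk and Slc35a4 were raised on both days, at 0.82 and 0.77, 1.15 and 1.06, and 0.79 and 0.95, and their change between days did not pass (adjusted p = 0.907, 0.871 and 0.74). Ccng1 was at 0.97 and 0.52 and Hjv at 1.197 and 0.66, also called on both days. Their change between days had an unadjusted p of 0.0064 and 0.0089 and did not pass after adjustment (0.234 and 0.259).
The interferon response list had 37 called members at day 3 and 14 at day 9, with medians of 1.02 and 0.356, and 5 of its genes passed the test of the change. The macrophage list had 12 and 0, with medians of 0.671 and 0.156, and 0 of its genes passed that test. The count of 26 was 7 in a fit on the 12 arrays of both days. It was 10 without treated replicate 1, 7, 14 and 49 without saline replicates 1, 2 and 3 of day 3, and from 9 to 64 on leaving out an array of day 9.

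**Figure D5:**
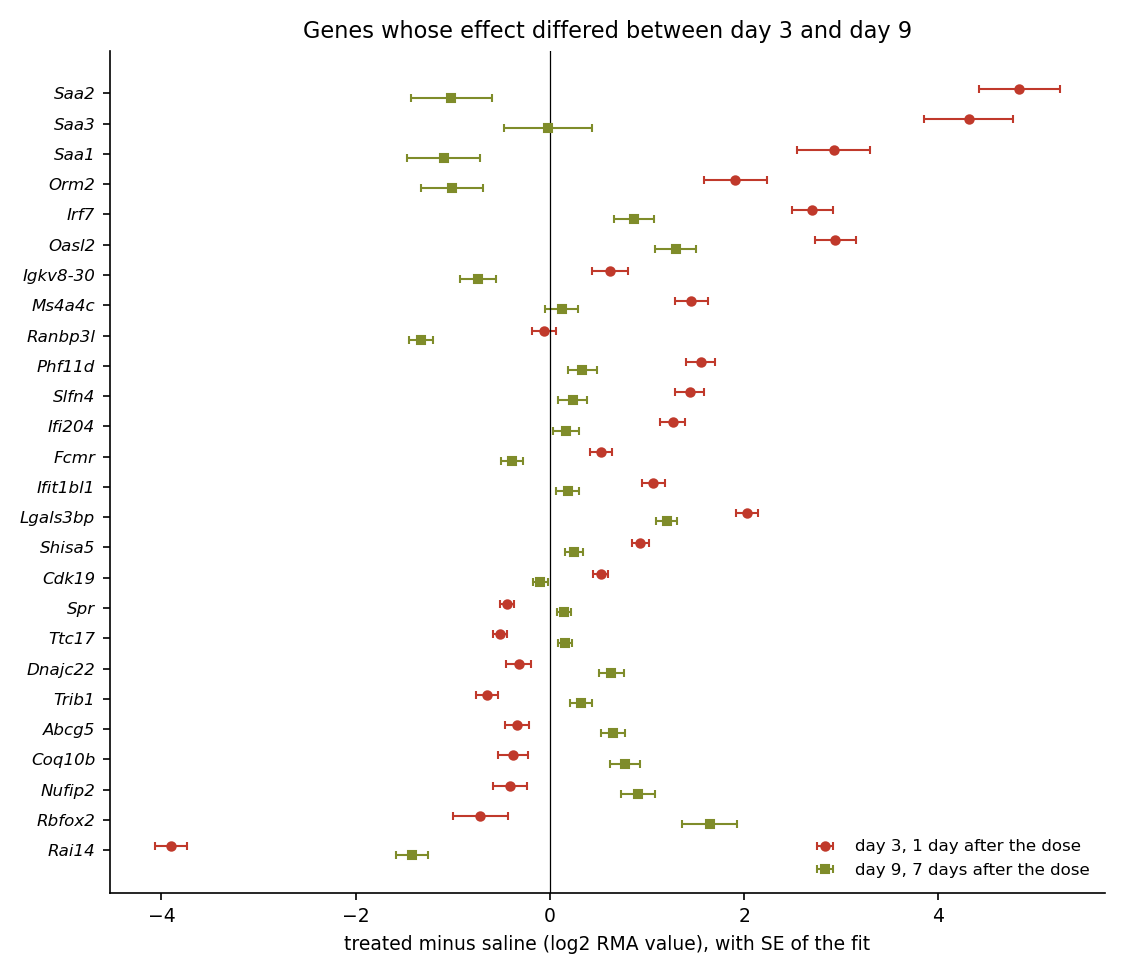
Treated minus saline log2 RMA value (horizontal axis) with its SE at day 3 and at day 9 for the 26 genes whose effect differed between the days, ordered by the difference. Saa2 lies at 4.83 and -1.02, and Rai14 at -3.90 and -1.42.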

How the data were processed

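Liver RNA was hybridised to Affymetrix arrays, 1 array per sample and 1 mouse per array in the 6 arrays compared. The authors deposited log2 values made by RMA, per the submitters' processing notes, which summarise each probe set across arrays and shrink differences between dim signals; its version is not given in the sources used here, nor is the set of arrays normalised together. Of 45101 probe sets, 34945 were paired with 1 gene symbol, 932 with several and 9160 with none or none listed, and 64 were controls. The probe set with the highest mean stood for each of 18193 genes.

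A limma model (3.58.1, R 4.3.3) with 1 mean for each of 6 groups of 3 arrays was fitted to 18 arrays, giving 12 residual degrees of freedom and 4.85 from the prior. Benjamini-Hochberg adjustment ran over all genes, which were called at 0.05; SEs are from this fit. Per the labels the mice are biological replicates. The script was tested on simulated data. Figures used Python 3.11.15, pandas 2.3.3 and matplotlib 3.10.9.

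Genes were named from the 15 largest increases outside the interferon response and serum amyloid A lists, the 15 largest decreases and the 5 largest increases overall. They were taken among called genes whose groups did not overlap and whose higher mean lay above the median of all probe sets. Up to 4 members of each of 46 gene lists with the lowest p (2 where none passed), 3 genes each way for the difference between days, and Aldoa, Bckdk, Hjv, Ccng1, Ndrg3, Cd320, Rai14, Ifit1 and Saa2 were added; not every gene the rule gives is described. Members outside this rule were named after their values were seen, and the comparison, the lists and the rule were chosen with earlier results of these data known. Alternatives covered the arrays in the fit, normalisation, centring, filters on dim genes, the choice of probe set, the prior, an actin ratio covariate, a replicate block and leaving out each array. The main fit did not pair mice by replicate number.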

Additional observations from a re-analysis of the deposited data

Results flagged for a closer look

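The effect of treatment differed between day 3 and day 9 in 26 genes by a limma interaction term. The day 3 effect exceeded the day 9 effect by 5.85 for Saa2, 4.33 for Saa3, 4.02 for Saa1 and 2.92 for Orm2 (log2). The same difference was 1.84 for Irf7, 1.64 for Oasl2, 1.22 for Phf11d and 0.83 for Lgals3bp. It was negative for Rai14 (-2.49), Rbfox2 (-2.37) and Nufip2 (-1.32).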

How the results depend on the processing

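The 821 calls at day 3 (479 higher, 342 lower) numbered 253 (186 and 67) in a fit on the 6 arrays of the day, 98 (67 and 31) with the actin ratio as a covariate and 311 (247 and 64) with a change of at least 1.5-fold. Among genes above the 75th percentile of all probe sets 533 were lower. Leaving out each array gave 435 to 876 calls, 312 to 541 higher and 123 to 335 lower. The 26 genes that differed between the days numbered 7 on the 12 arrays of days 3 and 9, and 7 to 64 on leaving out an array. The cause of these shifts was not tested. Median centring gave 428 higher and 377 lower and quantile normalisation 554 and 291. The direction turned with the actin covariate for Lum (-0.028) and Ppbp (-0.03), and with the mean of the probe sets for Psma1 (-0.013), 3 genes that did not pass. Of 102 named genes that passed, 64 kept the call without any 1 array and 29 in every alternative.

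With the replicate number as a block 734 genes passed (448 higher, 286 lower), and 22 differed between the days. Deviations of same-numbered treated and saline mice correlated at 0.047, -0.217 and -0.105, against -0.103 to 0.201 for mice with unlike numbers. With 3 mice per group such correlations cannot tell whether the numbers pair the mice. The main fit treated the mice as unpaired. Dim probe sets limit what can be seen: 44 called higher and 11 called lower genes had a mean below the median of all probe sets.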
